A study of Mus musculus with 4 samples.

Results

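The germline and Rhox genes described here are 9 genes with 11 probes: Prdm1, Tfap2c and Dppa3, which act in early germ cells, the X-linked homeobox genes Rhox5, Rhox6 and Rhox9, and Dazl, Ddx4 and Ddx25, which encode RNA-binding proteins and helicases of later germ cells. They were chosen by name, as every non-control probe whose transcript accession belongs to one of these genes. No threshold on a measured value enters that rule, but the genes were named with earlier results of these data known. They stand among 32970 genes or transcripts with 41174 probes on the array. All 11 probes passed the filter on dim signals, so all 9 genes were among the 21754 genes tested, 1 probe a gene.

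The cells were D3 mouse embryonic stem cells, an established line, cultured as embryoid bodies in medium without LIF, the cytokine that keeps mouse stem cells undifferentiated. The groups were Pnpla6 silenced cells at 96 h, control cells at 96 h, Pnpla6 silenced cells at 24 h and control cells at 24 h, with 2 samples each. Silenced cells had received siRNA against Pnpla6, called siNTE in the labels after the encoded neuropathy target esterase, by lipofection at 1.25 pmol of each siRNA. What the control cells were given is not in the labels. Nor is it said whether the 2 samples of a group came from separate cultures. Replicates may thus differ for technical reasons alone, and the p-values cannot be taken to cover variation between cultures. For silencing, the p-values also do not measure the spread between a gene's own 2 arrays of a time. The fit removed a shared difference between replicates 1 and 2, and its error came mostly from other genes (34.0 degrees of freedom, beside 1). Ddx4 at 96 h thus had an SE of 0.06, although its log2 ratios on the arrays were -0.11 and 0.43. The silencing was transient, and 1 cell line was used.

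Each of the 4 arrays held a silenced and a control RNA of the same time point, labelled with Cy3 and Cy5. Replicate 1 had the silenced RNA in Cy3 and replicate 2 had it in Cy5. Between 62.5% and 68.7% of the non-control spots were well above background in a channel, and none was saturated. The number of arrays limits the precision. Slide 1 held 3 arrays and slide 2 held replicate 2 of 96 h alone. Pnpla6 itself had log2 ratios, silenced over control, of 0.12 and -0.11 at 96 h and of -0.73 and -1.002 at 24 h. By this brighter probe its level was 54.9% of control at 24 h (log2 -0.87, SE 0.06, adjusted p = 1.8e-11) and 100.6% of control at 96 h (log2 0.01, adjusted p = 0.960). A second Pnpla6 probe read a smaller fall, -0.57 at 24 h, and 0.01 at 96 h. The response at 96 h was thus read when Pnpla6 RNA was near the control level on both arrays.

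Primordial germ cells, the precursors of sperm and eggs, are set aside in the early mouse embryo when BMP and WNT signals switch on a small group of transcription regulators that includes Prdm1 and Tfap2c. Genes of later germ cells, such as Dazl and Ddx4, carry promoters that DNA methylation and repressor complexes with the proteins MGA, MAX and E2F6 keep silent in most other cells. Embryonic stem cells transcribe several of these genes at low levels, and Dppa3 and Rhox5 are known to be expressed in them, so a germline gene read in this culture is not by itself a sign of germ cells. In bulk RNA, fewer cells of a type and less RNA per cell cannot be told apart.

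Silencing at 96 h went with a lower level of 1 gene and higher levels of a pair of others. Ddx25 was 2.29-fold lower in silenced than in control cells, Prdm1 was 1.23-fold higher and Dazl was 1.14-fold higher, and the other 6 genes did not pass the test. Thus 3 of the 9 genes passed at 96 h, where 13.5% of all genes tested did. At 24 h, 0 of the 9 genes passed in limma and 1, Prdm1, had an unadjusted p under 0.05, where 0.386% of all genes tested passed, 0.248% higher and 0.138% lower. The effect of silencing differed between 96 h and 24 h for 1 of the 9, Ddx25, against 6.94% of all genes. More of these genes changed with time in culture. At 96 h relative to 24 h, 7 of the 9 rose in silenced cells, where 19.6% of all genes rose and 17.7% fell (37.3% in either direction), and 7 of the 9 rose in control cells, where 19.5% of all genes rose and 16.9% fell (36.4% in either direction). The same 7 genes rose in both, all but Prdm1 and Ddx4. With the replicate block 9 of the 9 rose in silenced and 8 in control cells. Prdm1 passed in both (adjusted p = 6.4e-05 in silenced and 0.000483 in control cells). More of all genes passed with the block too, in either direction. They numbered 12566 of 21754 in silenced and 12375 in control cells, beside 8104 and 7920 without it. Without any 1 array the time ratios of all 9 stayed above 0 in each RNA. With the mean of all probes 6 rose in silenced cells, where Ddx25 did not pass (0.22, adjusted p = 0.373), and 7 in control cells. Because of how they were chosen, these counts describe the genes and support nothing further.

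**Figure D1:**
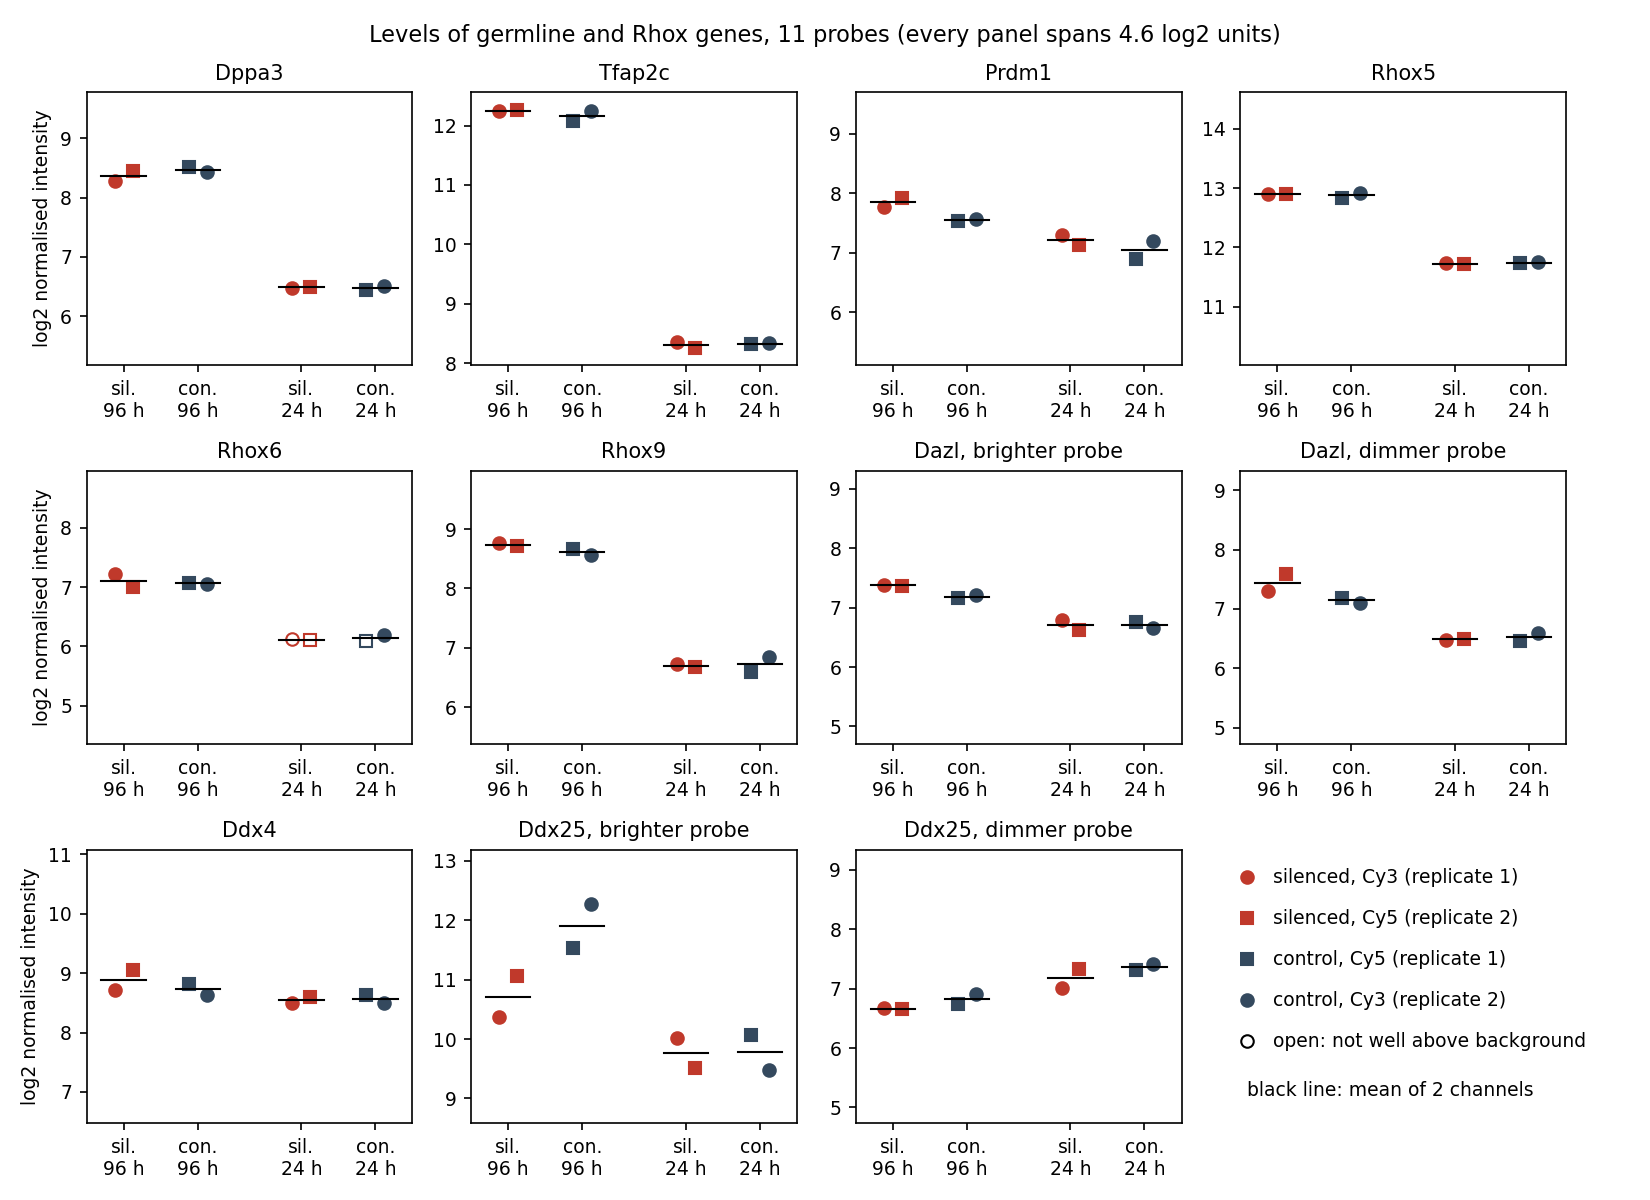
Log2 normalised intensity (vertical axis) of the 11 probes in all 8 channels, grouped on the horizontal axis into silenced 96 h, control 96 h, silenced 24 h and control 24 h. Each point is 1 channel, the marker shape gives the dye, open markers are not well above background and lines are means of 2 channels. The brighter Ddx25 probe separates silenced from control cells at 96 h, and Tfap2c, Dppa3, Rhox5, Rhox6 and Rhox9 sit higher at 96 h than at 24 h in both RNAs.

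The promoter windows are shown for the 3 genes that passed the test at 96 h and for Ddx4, a relative of Ddx25 that did not pass. Their letters can thus be set side by side. Windows were found in the RefSeq table (GRCm38.p6) for 5 of the 9 genes. Each runs 5′ to 3′ on the gene's strand over 250 bases before and 50 bases after the transcript start, 300 bases in all. The capitals mark CACGTG, the E-box bound by MGA and MAX in mouse, which reads the same on both strands, and TCCCGC or its complement GCGGGA, a core of E2F sites. The Ddx25 window lies at chr9:35558421-35558720 on the minus strand, the Ddx4 window at chr13:112652261-112652560 on the minus strand, the Dazl window at chr17:50293571-50293870 on the minus strand and the Prdm1 window at chr10:44458699-44458998 on the minus strand.
Ddx25: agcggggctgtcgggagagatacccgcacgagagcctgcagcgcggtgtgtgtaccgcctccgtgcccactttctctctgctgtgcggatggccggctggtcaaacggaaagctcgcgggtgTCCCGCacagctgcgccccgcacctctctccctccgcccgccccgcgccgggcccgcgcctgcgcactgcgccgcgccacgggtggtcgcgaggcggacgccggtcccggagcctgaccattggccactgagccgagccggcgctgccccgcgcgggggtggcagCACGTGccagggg
Ddx4: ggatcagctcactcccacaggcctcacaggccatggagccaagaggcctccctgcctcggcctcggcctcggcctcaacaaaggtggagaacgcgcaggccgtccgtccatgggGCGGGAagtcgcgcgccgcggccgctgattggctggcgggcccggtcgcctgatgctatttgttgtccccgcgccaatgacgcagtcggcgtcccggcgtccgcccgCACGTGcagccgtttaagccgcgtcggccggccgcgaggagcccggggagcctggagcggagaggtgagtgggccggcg
Dazl: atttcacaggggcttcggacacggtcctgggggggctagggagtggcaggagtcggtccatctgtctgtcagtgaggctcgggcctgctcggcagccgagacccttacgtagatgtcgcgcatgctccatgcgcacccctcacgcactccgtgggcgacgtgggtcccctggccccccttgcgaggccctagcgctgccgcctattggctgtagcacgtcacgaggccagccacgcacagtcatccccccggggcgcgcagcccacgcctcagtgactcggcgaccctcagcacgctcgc
Prdm1: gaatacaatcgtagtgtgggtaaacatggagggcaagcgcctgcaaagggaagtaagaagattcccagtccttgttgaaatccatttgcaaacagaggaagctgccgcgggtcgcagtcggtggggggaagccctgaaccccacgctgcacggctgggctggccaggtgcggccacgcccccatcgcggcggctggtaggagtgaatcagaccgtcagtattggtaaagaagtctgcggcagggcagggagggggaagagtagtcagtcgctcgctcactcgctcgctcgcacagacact
Ddx25 and Ddx4 each held 1 CACGTG and 1 of the E2F words, and the other 3 windows, Dazl, Prdm1 and Rhox5, held neither. Of all 32851 windows in the table, 7.15% held CACGTG and 20.0% held TCCCGC or its complement. CG dinucleotides numbered 41 in the Ddx25 window, 38 in Ddx4, 28 in Dazl, 20 in Prdm1 and 5 in Rhox5, beside a median of 7 over all windows. Of the pair with both words, Ddx25 was lower in silenced cells at 96 h and Ddx4 did not pass. A match to these letters is a description and not a binding site.

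Ddx25, a DEAD-box RNA helicase of the testis that male mice need to complete sperm formation, was lower in silenced than in control cells at 96 h. Its brighter probe read 10.36 and 11.06 log2 units in silenced cells at 96 h, against 11.53 and 12.28 in control cells at 96 h. At 24 h it read 10.02 and 9.51 in silenced cells and 10.07 and 9.49 in control cells. The groups did not overlap at 96 h, although replicate 2 read higher than replicate 1 in both RNAs, and they overlapped at 24 h. The log2 ratios of silenced over control were -1.16 and -1.22 at 96 h and -0.05 and 0.03 at 24 h. The mean ratio at 96 h was -1.19 (SE 0.06, adjusted p = 1.5e-16), 43.7% of the control level. That was the 7th lowest ratio of the 21754 genes. The mean ratio at 24 h was -0.01 (SE 0.06, adjusted p = 0.996), and the difference between the times was -1.18 (SE 0.09, adjusted p = 6.1e-12).

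Ddx25 RNA rose with time in both RNAs, and it reached a lower level in silenced cells. It was 1.92-fold higher at 96 h than at 24 h in silenced cells (log2 0.94, SE 0.26, adjusted p = 0.0239) and 4.37-fold higher in control cells (log2 2.13, SE 0.26, adjusted p = 0.000658). In the order of levels, control 96 h stood highest and silenced 96 h second, while silenced and control cells of 24 h did not differ beyond their spread. With the array of slide 2 left out, the rise was 0.62 in silenced and 1.73 in control cells on the log2 scale.

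The second Ddx25 probe did not show this pattern. It read 6.67 and 6.66 log2 units in silenced cells at 96 h, against 6.75 and 6.91 in control cells at 96 h, and 7.02 and 7.33 in silenced cells at 24 h, against 7.32 and 7.41 in control cells at 24 h. Silenced cells were below control cells on every array, but by little, and the 96 h channels were the low ones in both RNAs. In a fit over all 28082 probes, chosen after seeing the data, its ratio was -0.16 at 96 h (SE 0.07, adjusted p = 0.106) and -0.19 at 24 h (adjusted p = 0.304), with a difference of 0.03 (adjusted p = 0.918). At 96 h over 24 h it read -0.51 in silenced cells (adjusted p = 0.0638) and -0.54 in control cells (adjusted p = 0.0539). The lower level of Ddx25 in silenced cells at 96 h and its rise with time therefore rest on 1 probe of 2. Which transcript each probe reads was not tested.

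Dazl, an RNA-binding protein that promotes translation in germ cells and is needed for their survival, was higher in silenced cells at 96 h by both of its probes. The brighter probe read 7.39 and 7.37 log2 units in silenced cells at 96 h, against 7.16 and 7.21 in control cells at 96 h. At 24 h it read 6.79 and 6.62 in silenced cells and 6.76 and 6.66 in control cells. Both silenced channels stood above both control channels at 96 h, and the groups overlapped at 24 h. Its ratio was 0.19 at 96 h (SE 0.06, adjusted p = 0.0306), higher in 2 of 2 arrays, and -0.01 at 24 h (adjusted p = 0.997). The difference between the times was 0.20 (SE 0.09, adjusted p = 0.197) and did not pass.

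The dimmer Dazl probe read 7.30 and 7.58 log2 units in silenced cells at 96 h, against 7.19 and 7.10 in control cells at 96 h, again with no overlap. In the fit over all probes its ratio was 0.30 at 96 h (SE 0.07, adjusted p = 0.00152) and -0.04 at 24 h, and for this probe the difference of 0.33 did pass (SE 0.10, adjusted p = 0.0236). With time, the brighter Dazl probe rose 1.60-fold in silenced cells (log2 0.68, SE 0.09, adjusted p = 0.00104) and 1.39-fold in control cells (log2 0.48, SE 0.09, adjusted p = 0.00541).

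Ddx4, the mouse Vasa helicase of germ cell granules, did not pass for silencing at either time. It read 8.72 and 9.06 log2 units in silenced cells at 96 h, against 8.82 and 8.63 in control cells at 96 h. The groups overlapped, and the arrays disagreed in direction, with ratios of -0.11 and 0.43. Its mean ratio was 0.16 at 96 h (limma, SE 0.06, unadjusted p = 0.018, adjusted p = 0.101) and -0.02 at 24 h (adjusted p = 0.996). At 96 h over 24 h its log2 ratio was 0.34 in silenced cells (adjusted p = 0.111) and 0.17 in control cells (adjusted p = 0.433). With the replicate block the ratio in silenced cells passed (0.34, adjusted p = 0.00226), as did 12566 of all 21754 genes, beside 8104 without it. Without any 1 array the ratio was 0.23 to 0.46 in silenced and 0.10 to 0.23 in control cells.

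**Figure D2:**
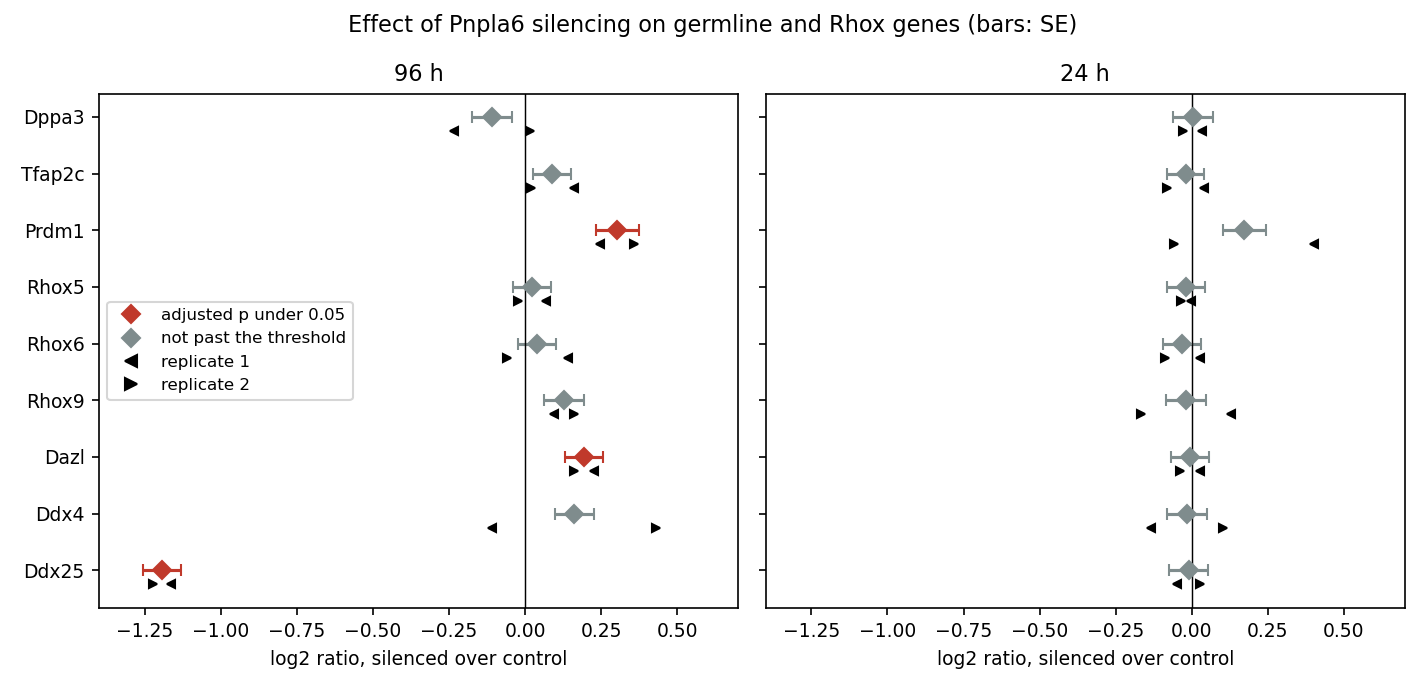
Log2 ratio of silenced over control cells (horizontal axis) for the 9 genes (vertical axis) at 96 h on the left and 24 h on the right. Diamonds are means of 2 arrays with their SE, red where the adjusted p is under 0.05, and triangles are the arrays. Ddx25 lies at -1.19 and Prdm1 and Dazl at 0.30 and 0.19 at 96 h, and no gene is red at 24 h.

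Prdm1, the transcriptional repressor also called Blimp1 that starts the germ cell programme in mouse, was higher in silenced cells at 96 h. It read 7.78 and 7.92 log2 units in silenced cells at 96 h, against 7.53 and 7.57 in control cells at 96 h. At 24 h it read 7.29 and 7.14 in silenced cells and 6.89 and 7.19 in control cells. The groups did not overlap at 96 h and did at 24 h, where the ratios of the arrays were 0.40 and -0.06. Its mean ratio was 0.30 at 96 h (SE 0.07, adjusted p = 0.00257), higher in 2 of 2 arrays, and 0.17 at 24 h (SE 0.07, unadjusted p = 0.020, adjusted p = 0.482). The difference between the times was 0.13 (SE 0.10, adjusted p = 0.547), so its response was not shown to differ between them. At 96 h over 24 h its ratio was 0.64 in silenced cells (SE 0.24, adjusted p = 0.0779) and 0.51 in control cells (SE 0.24, adjusted p = 0.148). Every 96 h channel stood above every 24 h channel.

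Tfap2c, the transcription factor AP-2 gamma, which acts downstream of Prdm1 in mouse germ cell precursors and also in trophoblast and surface ectoderm, had the largest change with time of the 9 genes. It read 12.24 and 12.27 log2 units in silenced cells and 12.08 and 12.25 in control cells at 96 h. The 24 h channels read 8.35 and 8.26 in silenced cells and 8.31 and 8.34 in control cells, so all 4 lay far below the 96 h channels. The rise was 15.4-fold in silenced cells (log2 3.95, SE 0.09, adjusted p = 2.8e-06) and 14.3-fold in control cells (log2 3.84, SE 0.09, adjusted p = 2.6e-06). These were the 2nd and the 5th highest time ratios of the 21754 genes. Silenced and control channels overlapped at 96 h, and silencing gave ratios of 0.09 at 96 h (SE 0.06, adjusted p = 0.408) and -0.02 at 24 h (adjusted p = 0.994).

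Markers of the other cell types known to use Tfap2c were set beside this rise. Of all genes, 19.6% rose and 17.7% fell in silenced cells, and 19.5% rose and 16.9% fell in control cells. Of the trophoblast list, 8 of 12 genes were tested. In silenced cells 4 rose and 1 fell, while 6 rose and 1 fell in control cells. The summed level of the 8 was 31570 to 33229 intensity units in silenced cells at 96 h and 38366 to 39398 in control cells at 96 h, beside 4997 to 5057 in silenced cells at 24 h and 4845 to 5308 in control cells at 24 h. Elf5, Gata3 and Tpbpa of this list did not pass the filter on dim signals in any group, while Cdx2, Eomes and Hand1 passed it and were tested. Of the surface ectoderm list, 6 of 10 genes were tested, 0 rose and 1 fell in each RNA, and Trp63, Dlx3 and Krt15 were not well above background. The summed level of the 6 was 1363 to 1450 units in silenced and 1418 to 1496 in control cells at 96 h, beside 1904 to 2199.5 in silenced and 1937 to 2064 in control cells at 24 h. The part of these cells in the rise of Tfap2c was not tested.

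Dppa3, also called Stella, a protein of naive stem cells, oocytes and germ cells that protects DNA methylation in the mouse zygote, rose with time as well. Its probe read 8.27 and 8.45 log2 units in silenced cells and 8.51 and 8.43 in control cells at 96 h. At 24 h the values were 6.48 and 6.49 in silenced cells and 6.45 and 6.52 in control cells. Silenced and control channels overlapped at both times, and every 96 h channel was above every 24 h channel. The rise was 3.67-fold in silenced cells (log2 1.87, SE 0.15, adjusted p = 9.9e-05) and 3.97-fold in control cells (log2 1.99, SE 0.15, adjusted p = 7.2e-05). Its silencing ratio was -0.11 at 96 h (SE 0.06, adjusted p = 0.315) and 0.00 at 24 h (adjusted p = 0.998).

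The Rhox genes, a cluster of homeobox genes on the X chromosome expressed in reproductive tissues and placenta, rose with time in both RNAs and did not pass for silencing at either time. Rhox5, known from stem cells, extraembryonic tissue and Sertoli cells, read 12.91 and 12.89 log2 units in silenced cells and 12.84 and 12.92 in control cells at 96 h. At 24 h Rhox5 read 11.74 and 11.72 in silenced cells and 11.74 and 11.75 in control cells. The replicates of Rhox5 lay close together in every group, and silenced and control channels overlapped at 96 h. At 24 h both silenced channels lay just below both control channels, so a lack of overlap does not by itself mark a change. How many of all genes had no overlap was not counted. Its rise was 2.26-fold in silenced cells (log2 1.17, SE 0.09, adjusted p = 7.3e-05) and 2.19-fold in control cells (log2 1.13, SE 0.09, adjusted p = 8.0e-05), and its silencing ratios were 0.02 at 96 h (adjusted p = 0.884) and -0.02 at 24 h (adjusted p = 0.996).

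Rhox9, known from placenta and fetal germ cells, read 8.76 and 8.72 log2 units in silenced cells and 8.67 and 8.56 in control cells at 96 h. Its 24 h values were 6.73 and 6.68 in silenced cells and 6.60 and 6.85 in control cells. Silenced channels were above control channels at 96 h, and the silencing ratio of 0.13 did not pass (SE 0.07, adjusted p = 0.234). At 24 h the ratio was -0.02 (adjusted p = 0.996). The rise with time was 4.10-fold in silenced cells (log2 2.04, SE 0.17, adjusted p = 0.000119) and 3.71-fold in control cells (log2 1.89, SE 0.17, adjusted p = 0.000162). With an offset of 16 it was 2.49 in silenced and 2.32 in control cells on the log2 scale.

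Rhox6, a close relative of Rhox9 expressed in placenta, read 7.21 and 6.996 log2 units in silenced cells and 7.07 and 7.06 in control cells at 96 h. At 24 h it was not well above background in either silenced channel nor in 1 of the 2 control channels, with readings of 6.12 and 6.11 in silenced and 6.09 and 6.19 in control cells. Its rise in silenced cells is therefore a bound of at least 1.99-fold (adjusted p = 0.000235). For this bound the dim level is the higher of the probe's own signal and the lowest signal among probes well above background. In control cells Rhox6 rose 1.89-fold (log2 0.92, SE 0.10, adjusted p = 0.000328), with 1 of the 2 channels at 24 h measured. The silencing ratio at 96 h was 0.04 (SE 0.06, adjusted p = 0.758).

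Other genes of the cluster gave little to set beside these. Of 29 further Rhox genes listed, 4 were found on the array by symbol, and Rhox3a and Rhox4e were tested. Neither passed in any comparison. Rhox3a had a silencing ratio of -0.07 at 96 h (adjusted p = 0.514) and Rhox4e of 0.00 (adjusted p = 0.998). Their time ratios were -0.18 and -0.16 in silenced cells and -0.07 and -0.26 in control cells. Rhox2a and Rhox11 were not well above background.

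**Figure D3:**
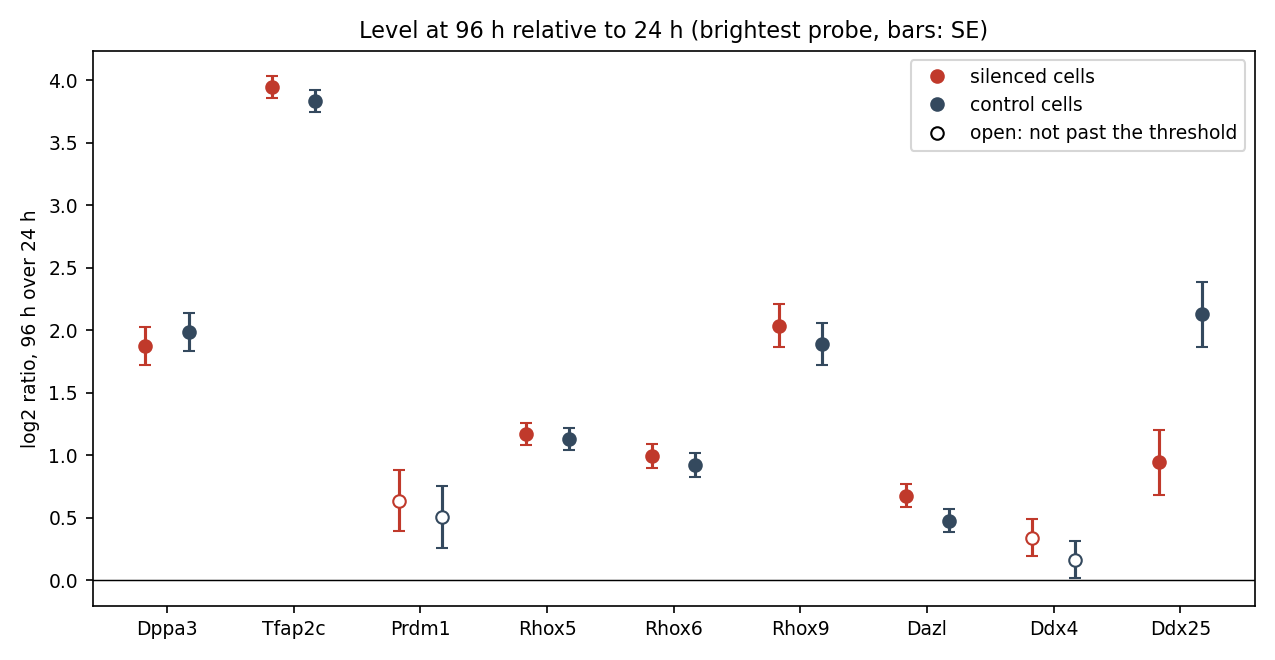
Log2 ratio of 96 h over 24 h (vertical axis) for the 9 genes (horizontal axis) in silenced cells (red, left of each pair) and control cells (blue), with SE bars and open markers where the adjusted p is not under 0.05. Tfap2c lies highest at 3.95 and 3.84, and Ddx25 lies at 0.94 in silenced and 2.13 in control cells.

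The other genes of late germ cells and meiosis were read from a list of 62, of which 51 were on the array and 43 were tested. At 96 h, 12 of the 43 were higher in silenced than in control cells and 1 was lower. The share higher was 27.9%, where 6.63% of all genes were higher and 6.82% lower. This list was chosen with earlier results of these data known. Its shares beside all genes thus describe the listed genes and support nothing further. Shares of the other gene lists are limited in the same way. The median ratio over the 43 was 0.05, beside 0.00 over all genes, with 28 of the 43 above 0 and 15 below. Stra8, a switch for entry into meiosis, had ratios of 0.37 and 0.57 on the arrays and a mean of 0.47 (adjusted p = 7.6e-07). Mael, a protein of the piRNA pathway that silences transposons, had 0.38 on both arrays and in the mean (adjusted p = 2.9e-05). Smc1b, a cohesin subunit of meiosis, had a mean of 0.36 (adjusted p = 8.4e-05), and Mov10l1, a helicase of piRNA production, had 0.35 (adjusted p = 8.7e-05). A second probe of Mov10l1 read 0.16. Other second probes among the 12 that passed the filter read -0.02 for Nanos1, beside 0.21, and 0.12 for Taf7l, beside 0.23. Second probes of Hormad1 and Tex12 did not pass the filter and read -0.05 and 0.02, beside 0.25 and 0.29. With the mean of all probes 10 late genes were higher, so the count depends in part on the choice of probe. The 1 gene lower in silenced cells was Tdrd12, a tudor domain protein of the piRNA pathway, at -0.22, and its second probe read -0.33.

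At 24 h none of the 43 late genes passed in limma, and the smallest p-values belonged to Tex15 at -0.19 (adjusted p = 0.28) and Smc1b at 0.16 (adjusted p = 0.43). The effect of silencing at 96 h exceeded that at 24 h for 7 of the 43 and was below it for 0, against 2.83% and 4.11% of all genes. Mael led with a difference of 0.46 (adjusted p = 0.00055), and Stra8 followed with 0.41 (adjusted p = 0.0018). Mov10l1 and Tex19.1 had differences of 0.39 each (adjusted p = 0.0030 and 0.0037). With time, 16 of the 43 rose and 4 fell in silenced cells, and 14 rose and 3 fell in control cells. That is 37.2% and 9.30% in silenced and 32.6% and 6.98% in control cells. Over all genes the shares were 19.6% and 17.7% in silenced and 19.5% and 16.9% in control cells. Stra8 stood 3.03 log2 units higher at 96 h in silenced and 2.62 in control cells, and the cohesin subunits Rec8 and Smc1b rose too, by 1.77 and 2.21 in silenced and by 1.58 and 2.02 in control cells. Zp3, an egg coat protein, fell by 2.47 in silenced and by 2.45 in control cells on the log2 scale.

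**Figure D4:**
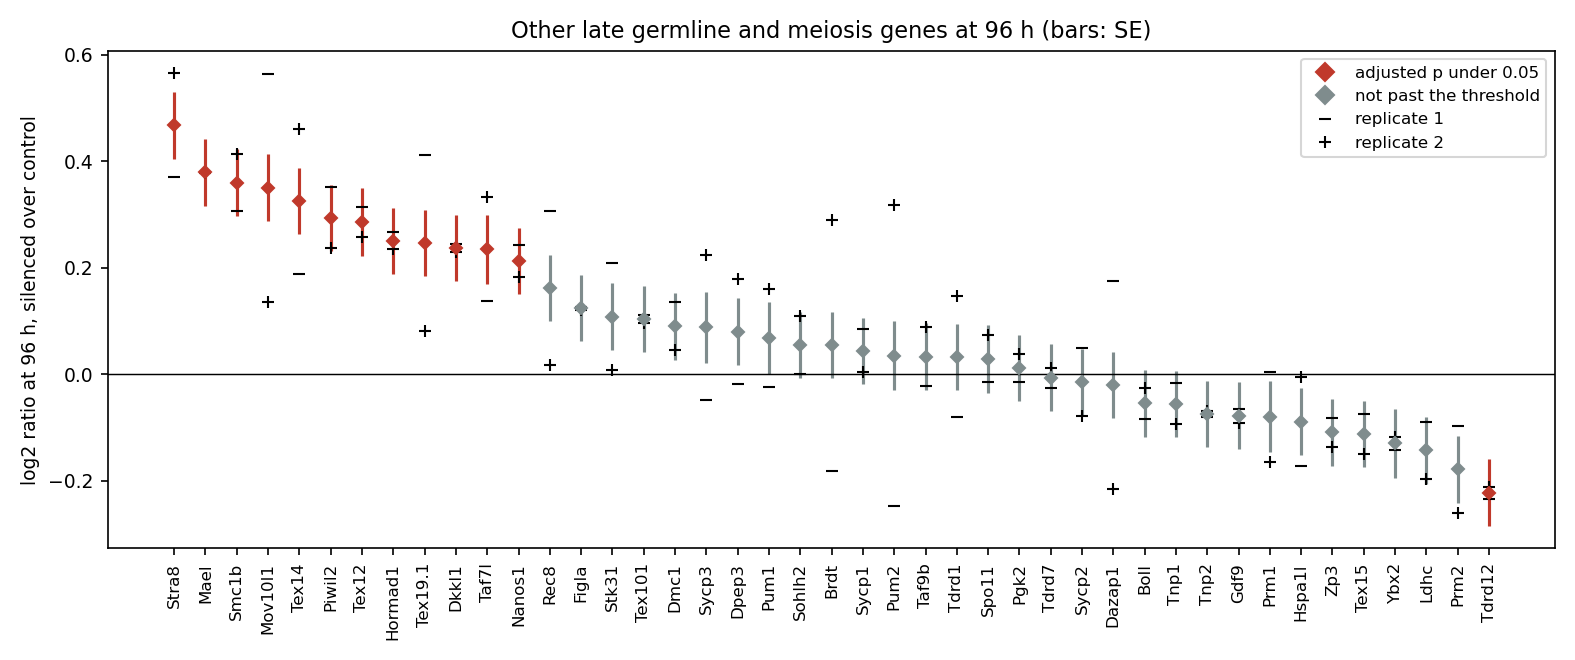
Log2 ratio of silenced over control cells at 96 h (vertical axis) for the 43 late germline and meiosis genes tested (horizontal axis), in order of their ratio. Diamonds are means with SE bars, red where the adjusted p is under 0.05, and the dash and the cross are replicates 1 and 2. Stra8 at 0.47 is the highest and Tdrd12 at -0.22 the lowest.

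The promoter words of Ddx25 and Ddx4 were also counted in these genes. Of the late genes that were higher at 96 h, 11 had a window in the table, of which 5 held CACGTG and 6 held an E2F word. Of the late genes tested and not higher, 27 had a window, of which 9 held CACGTG and 9 held an E2F word. The median count of CG dinucleotides was 20 in the 11 windows and 15 in the 27, and it was 7 over all windows.

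Factors that keep germline genes silent in other cells were measured from a list of 27, of which 23 were tested. At 96 h 1 was higher and 2 were lower in silenced cells, 13.0% of the 23 beside 13.5% of all genes, so the list's share was near the background. Dnmt3b, a DNA methyltransferase that sets new methylation, was lower, with a ratio of -0.64 (adjusted p = 9.1e-10), and its effect differed between 96 h and 24 h by -0.62. Dnmt3a, its relative, was higher at 0.26 (adjusted p = 0.0030), although its other probes read 0.06 and 0.07. Tfdp1, a partner of E2F proteins, was lower at -0.23 with array ratios of 0.00 and -0.47, so 1 array carried it. None of the 23 passed at 24 h in limma. With time 11 of the 23 fell in silenced and 11 fell in control cells, 47.8% beside 17.7% and 16.9% of all genes, among them Uhrf1, which brings Dnmt1 to newly copied DNA, by 0.82 in silenced and by 0.85 in control cells on the log2 scale, and the histone methyltransferase Ehmt2 by 1.16 in silenced and by 1.29 in control cells.

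Early germ cell genes other than the 3 named above formed a list of 25, with 24 tested. At 96 h, 6 were higher and 3 lower in silenced cells, that is 25% and 12.5% beside 6.63% and 6.82% of all genes. None passed at 24 h in limma. This list too was chosen with earlier results of these data known, so its shares are a description only. Wnt3, a signal for germ cell competence, was lower at -0.64 (adjusted p = 1.0e-09), and a second probe read -0.45. Lin28a, an RNA-binding protein that blocks let-7 microRNAs and is needed for germ cell formation in mouse, was lower at -0.35 (adjusted p = 8.9e-05). Tcl1, a cofactor of the AKT kinase, was higher at 0.52 (adjusted p = 8.3e-08), and Ifitm1, a membrane protein of early germ cells, was higher at 0.34 (adjusted p = 0.00019). With time 8 rose and 6 fell in each RNA, 33.3% and 25%, beside 19.6% and 17.7% of all genes in silenced and 19.5% and 16.9% in control cells. Bmp4, the ligand that induces germ cells, fell by 1.499 in silenced and by 1.64 in control cells on the log2 scale, and Sox15 rose by 0.91 in silenced and by 0.78 in control cells.

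Markers of other cell types were set beside these genes at 96 h, where 6.63% of all genes were higher and 6.82% lower. Of the 9 pluripotency markers tested, all well above background in every group, 6 were higher and 1 was lower in silenced cells. Among the 6 was Tfcp2l1 at 0.27, whose other probes read -0.41 and 0.11. Esrrb was higher at 0.37 and Sox2 and Tbx3 at 0.36, while Pou5f1 had array ratios of 0.01 and -2.11 and a mean of -1.05. The summed level of the 9 was 103369 to 110607 units in silenced and 95258 to 100790 in control cells at 96 h, and 107560 to 125426 in silenced and 104637 to 109871 in control cells at 24 h. Of 13 visceral endoderm markers 9 were tested, 2 were higher at 96 h, led by Cubn at 1.05, and 0 were lower. Their sum was 1274 to 1305 units in silenced and 1066 to 1069 in control cells at 96 h, beside 807 to 817 in silenced and 804 to 824 in control cells at 24 h, with Ttr, Apoa1, Apob and Cer1 not well above background. Of 9 gonad markers tested, Inha was higher at 0.24 and Wt1 lower at -0.26, with sums of 967 to 983 in silenced and 975 to 987 in control cells at 96 h, and 1074 to 1076 in silenced and 1052 to 1103 in control cells at 24 h. Fshr, the listed gonad marker that was not tested, was not well above background. Of the 8 trophoblast markers tested, 2 were higher at 96 h, led by Esx1 at 0.35, and 2 were lower, led by Krt8 at -0.78. The part of these cells in the values of Prdm1, Dazl, Ddx25 and the late germline genes was not tested.

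The genes whose 4 group levels ran most like a member's were found by the root mean square difference of centred log2 levels over the 4 groups. For Ddx25 they were Pim2 at 0.085, Has2 at 0.100 and Calcr at 0.121 log2 units. Around its own mean, Ddx25 stood at 0.17 in silenced and 1.36 in control cells at 96 h and at -0.77 in silenced and -0.76 in control cells at 24 h. Pim2 stood at 0.20 in silenced and 1.23 in control cells at 96 h and at -0.76 in silenced and -0.67 in control cells at 24 h. The closest genes to Prdm1 were Megf11 at 0.022, Ctsa at 0.027 and Ei24 at 0.027, and those to Dazl were Col26a1 at 0.012, Uap1 at 0.013 and Arhgef12 at 0.014.

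The calls on Prdm1 and Dazl at 96 h were lost in several settings in which their ratios were as large or larger. Prdm1 had 0.30 without the block (adjusted p = 0.462), 0.36 with an offset of 16 (adjusted p = 0.146) and 0.46 with the authors' ratios (adjusted p = 0.253). Dazl had 0.19 (adjusted p = 0.457), 0.25 (adjusted p = 0.0948) and 0.36 (adjusted p = 0.201) in the same settings. Median centring also ended the call on Dazl (0.22, adjusted p = 0.0842). Without the replicate block, which is also the dye term, the count of members at 96 h was 1, Ddx25 (adjusted p = 0.00723). With the authors' own log ratios the Ddx25 ratio was -1.25 (adjusted p = 0.170) and 0 of 9 members passed, with 3 at an unadjusted p under 0.05. Without any 1 of the 4 arrays the count was 1, Ddx25 at -1.22 to -1.16. All 12 late germline genes kept a ratio above 0 in each of these settings, but they had been picked for ratios above 0 in these same data. Leaving out the block or a 24 h array also cannot move a 96 h ratio, so the kept sign is no support. Of the 12, 0 passed without the block or with the authors' ratios.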

How the data were processed

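Agilent 2-colour arrays were read from the deposited scanner files. Spot and local background intensities are the authors' deposited Feature Extraction values (version 10.7 per the labels, 10.7.1.1 per the file headers), on a linear scale. The deposited value table holds log10 ratios, which equal the scanner's log ratios within 5.0e-06. Of 45018 spots, 1639 were controls. Feature Extraction and limma are named in the submitters' processing notes, and the array design build is mm8.

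Computed here with limma 3.58.1 in R 4.3.3: normexp background correction (offset 50) of median intensities, loess within each array with controls at weight 0, and log2 ratios of silenced over control. Spots flagged as non-uniform or as outliers (429 values) were left out. Probes well above background on both arrays of at least 1 RNA group were kept (28082 of 41174), and the brightest probe stood for a gene. Transcript accessions gave 24375 probes a symbol and left 16799 without. Silencing was fitted on all 4 arrays with a mean per time and a dye term, with eBayes and Benjamini-Hochberg adjustment over 21754 genes (threshold 0.05). The fit had 1 residual degree of freedom, and eBayes added 34.0 from the other genes. Time was tested on single channels after Aquantile (lmscFit, dye term, intraspot correlation 0.896). Channel levels are log2 values after Aquantile.

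Replicate numbers coincide with dye orientation, and the 2 cannot be told apart. Deviations of same-numbered arrays correlated at 0.70 between times, from 1 pair of times. The code was tested on simulated data. Alternatives were an offset of 16, the authors' ratios, median centring, no filter, the mean of probes, no block, quantile normalisation for time, and leaving out each array. The members and lists were chosen with earlier results of these data known. Named genes are all 9 members, Pnpla6, up to 4 genes a list and comparison with the smallest p among those past the threshold (the first 2 where none passed), and the 3 genes most like each member that silencing changed. Genes named as not above background, Tdrd12 and the pair of Prdm1 and Ddx4 that did not pass for time were named to account for a count. Nanos1, Taf7l, Hormad1, Tex12 and Tfcp2l1 were named because their probes differed. Cdx2, Eomes and Hand1 were named to set tested trophoblast genes beside those left out. Promoter windows came from RefSeq (GRCm38.p6). No coordinate was converted.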

Additional observations from a re-analysis of the deposited data

Results flagged for a closer look

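The effect of silencing differed between 96 h and 24 h in the limma fit for the genes given here, each as the log2 ratio at 96 h minus that at 24 h. Ddx25 had the only such difference among the 9 germline and Rhox genes, -1.18 (adjusted p = 6.1e-12). Its ratios were -1.16 and -1.22 on the 96 h arrays and -0.05 and 0.03 on the 24 h arrays, and its second probe gave 0.03 for the same difference. Pnpla6, the silenced gene, had 0.87. Of the late germline genes, Mael had 0.46, Stra8 0.41, Mov10l1 0.39 and Tex19.1 0.39. Of the early germ cell genes, Wnt3 had -0.55, Tcl1 0.46, Lin28a -0.34 and Kit, the receptor that germ cell precursors need to survive, 0.33. Dnmt3b had -0.62. Among the cell type markers, Pou5f1 had -1.74, Esrrb 0.34, Tbx3 0.36 and Sox2 0.29. The Pou5f1 arrays lay far apart at both times, with 0.01 and -2.11 at 96 h. Cubn had 1.101 and Amn 0.35 in the visceral endoderm list, Krt8 -0.72 and Esx1 0.35 in the trophoblast list, and Wt1 -0.38 and Inha 0.38 in the gonad list.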

How the results depend on the processing

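Each setting was changed alone, except that a silencing fit with 1 array left out also had no block, since it leaves no degree of freedom with one. The cause of a changed call was not tested. Members passing for silencing at 96 h numbered 3, but 1 without the replicate block, 1 with the offset at 16, 0 from the authors' ratios and 1 whichever array was left out, while median centring kept 2 and the other settings 3. Members whose effect differed between times numbered 1, but 0 without the replicate block, 0 from the authors' ratios and 0 whichever array was left out, with the Ddx25 difference at -1.22 to -1.14 (adjusted p = 0.060 to 0.273) in these fits. Late germline genes higher at 96 h numbered 12, but 0 without the replicate block (11 at an unadjusted p under 0.05), 0 from the authors' ratios (15) and 0 whichever array was left out (6 to 11). At 24 h 0 members passed in every setting. Of the values past the threshold, those that changed direction were Pou5f1 at 24 h (-0.21 without replicate 1 of 24 h to 1.58 without replicate 2), Pou5f1 at 96 h (-2.11 without replicate 1 of 96 h to 0.0065 without replicate 2), Tfdp1 at 96 h (-0.47 without replicate 1 of 96 h to 0.0012 without replicate 2), Tfcp2l1 at 96 h with the mean of all probes (-0.0090), and the second Ddx25 probe, chosen after seeing the data, for the difference (0.029) and for time in silenced (-0.51) and control cells (-0.54). Values of members that did not pass also changed sign, among them Ddx4 at 96 h (-0.11 without replicate 2 of 96 h), Prdm1 at 24 h (-0.06 without replicate 1 of 24 h) and Ddx4 and Rhox9 at 24 h (0.10 without replicate 1 and 0.13 without replicate 2 of 24 h). Ddx25 at 96 h was -0.68 with the mean of its probes. Over all genes, the calls at 96 h were 2927, but 106 without the replicate block, 1014 with the offset at 16, 0 from the authors' ratios (3847 unadjusted), 1798 with median centring and 29 to 114 when each array was left out. At 24 h they were 84, but 0, 0, 0 (1572 unadjusted), 42, and 0 in the same order, and 9 with the mean of probes. For the difference they were 1510, but 0, 271, 0, 737 and 0, and 965 with the mean of probes. With the replicate block the time calls were 12566 in silenced and 12375 in control cells, beside 8104 and 7920. All 9 members rose with the block in silenced and 8 in control cells, Prdm1 joining in both and Ddx4 in silenced cells. When each array was left out all 9 time ratios stayed above 0 in each RNA. With the mean of probes 6 rose in silenced cells, Ddx25 being lost (0.22, adjusted p = 0.373). Signal over background limits Rhox6 at 24 h. With the offset at 16 the log2 rises of dim probes were larger. In silenced and control cells they were 1.56 and 1.44 for Rhox6 and 0.92 and 0.66 for Dazl.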

Other observations

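The wider DEAD-box helicase family, to which Ddx25 and Ddx4 belong and which unwinds RNA in ribosome production, splicing and translation, was read from a list of 35, with 31 tested. At 96 h 1 was higher and 1 was lower in silenced cells, 6.45% of the 31 beside 13.5% of all genes. The higher one was Eif4a2, a translation initiation helicase, at 0.28 with array ratios of 0.55 and 0.00. The lower one was Ddx39a, an RNA export helicase, at -0.20 (limma, adjusted p = 0.028). None passed at 24 h in limma. With time 2 of the 31 rose and 20 fell in silenced cells, and 2 rose and 17 fell in control cells. Of all genes, 19.6% rose and 17.7% fell in silenced cells, and 19.5% rose and 16.9% fell in control cells. Ddx51 fell by 0.94 on the log2 scale in each RNA, while Eif4a2 rose by 1.08 in silenced and by 0.86 in control cells.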
